A study of Mus musculus with 5 samples.

Results

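The genes described here are the mouse matrix metalloproteases (MMPs), the ADAMTS and ADAMTS-like genes and the tissue inhibitors of metalloproteases (TIMPs), chosen by symbol. Of 55397 genes in the table, 51 had a symbol made of Mmp or Timp and a number, or beginning with Adamts. Of these, 44 had a normalised count averaging 10 or more across the 5 libraries and were tested among 17105 genes in all. They comprised 18 MMPs, 17 ADAMTS proteases, 5 ADAMTS-like genes and 4 TIMPs. A normalised count is the number of reads of a gene divided by a size factor of its library, and 1 read was worth 0.822 to 1.18 normalised counts.

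The libraries were bulk RNA-seq of dissected liver tumours in female C57BL/6N mice that received plasmids at 8 weeks of age by hydrodynamic tail vein injection (HDTVI), which drives plasmid DNA into hepatocytes. All mice carried the CMV-Sleeping Beauty transposase, pT3-EF1a-AKT and pT3-EF1a-NICD-IRES-rtTA, where NICD is the intracellular domain of a NOTCH receptor and the combination gives tumours resembling cholangiocarcinoma (CCA), a bile duct cancer. Control mice (n = 2 libraries) also received pT3-Tre-IRES-GFP and Prox1 overexpression (Prox1 OE) mice (n = 3) received pT3-Tre-FLAG-mmProx1-IRES-GFP. The comparison asks what late Prox1, a hepatocyte transcription factor, changes in tumours already formed. Both groups ate food with 6.25% doxycycline hyclate from day 21, which switches on the Tre promoter in cells holding the rtTA plasmid, and the labels give week 3 to week 4 as the time of overexpression. EF1a is a ubiquitous promoter, so the drivers were restricted by delivery and not by a hepatocyte promoter. For collection the labels name either the end of a week of overexpression or a humane endpoint and do not say which held for a given tumour, so the length of induction in each library is not known. The labels did not say whether each library came from a separate mouse, so the p-values below measure the spread between these libraries.

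Recovered library totals ran from 48740863 to 56629477 reads and overlapped between groups. Prox1 itself was at 4153 and 4664 normalised counts in Control and at 48089.8 (replicate 1), 11113 and 8231 in Prox1 OE, above both Control values in every one (log2 fold change 1.90, adjusted p = 0.061). Plasmid and genomic Prox1 reads could not be told apart. The labels give the cell type as transformed hepatocytes, and markers of both hepatocytes and cholangiocytes were present in every library.

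MMPs are zinc endopeptidases made as inactive precursors, secreted or held at the membrane, that cut collagens, proteoglycans and many cell surface proteins. ADAMTS proteases are secreted relatives whose thrombospondin repeats anchor them in matrix, and the ADAMTS-like proteins carry those repeats without a protease domain. TIMPs are secreted proteins that block the active site of MMPs, and TIMP3 also blocks several ADAMTS and ADAM proteases. In injured liver and in bile duct cancer these genes are active in tumour epithelium, activated stellate cells, fibroblasts and macrophages, where they take part in the turnover of scar collagen and basement membrane.

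A run of 10 Mmp genes lies on chromosome 9, spanning chr9:7272514-7699585 of GRCm38 (427.1 kb), in the order Mmp13, Mmp12, Mmp1b, Mmp3, Mmp1a, Mmp10, Mmp8, Mmp27, Mmp20 and Mmp7. This cluster held the MMPs that fell most, Mmp7 and Mmp10, and Mmp27, which rose, so the 120 bases upstream of the start of 6 of its genes are shown. The sequences are RefSeq promoters of GRCm38.p6, 5′ to 3′ on the strand of the gene, which is the plus strand for all 6. Capitals mark TGANTCA, a pattern that includes the letters bound by AP-1 factors but is wider, and TATAAA, the TATA box letters.
Mmp7 (chr9:7691970-7692089): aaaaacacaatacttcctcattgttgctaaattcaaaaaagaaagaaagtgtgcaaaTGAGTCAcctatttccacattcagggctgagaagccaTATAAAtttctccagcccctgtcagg
Mmp10 (chr9:7502222-7502341): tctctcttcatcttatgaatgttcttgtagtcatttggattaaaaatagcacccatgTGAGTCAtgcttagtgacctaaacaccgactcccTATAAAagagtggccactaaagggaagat
Mmp3 (chr9:7445702-7445821): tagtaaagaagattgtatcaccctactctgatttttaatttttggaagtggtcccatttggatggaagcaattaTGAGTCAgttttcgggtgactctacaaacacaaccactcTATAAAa
Mmp13 (chr9:7272394-7272513): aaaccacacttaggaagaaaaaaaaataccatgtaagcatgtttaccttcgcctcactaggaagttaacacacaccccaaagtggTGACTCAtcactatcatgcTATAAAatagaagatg
Mmp27 (chr9:7571276-7571395): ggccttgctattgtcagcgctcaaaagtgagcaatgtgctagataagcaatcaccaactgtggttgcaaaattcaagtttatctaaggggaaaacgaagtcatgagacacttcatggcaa
Mmp8 (chr9:7558309-7558428): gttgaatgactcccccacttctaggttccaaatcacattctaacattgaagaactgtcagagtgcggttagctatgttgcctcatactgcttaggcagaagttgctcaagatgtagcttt

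Over windows from 250 bases before to 50 bases after the start, and on both strands, TGANTCA was found in 7 of the 36 members with a RefSeq promoter (19.4%), against 7.81% of 32851 promoters of the same length. All 7 lay in the chromosome 9 cluster, namely Mmp13, Mmp1b, Mmp3, Mmp1a, Mmp10, Mmp20 and Mmp7, and all 7 also held TATAAA. The Mmp20 match read TGAATCA. In all, 11 of the 36 (30.6%) held TATAAA, against 13.6% of all promoters. In these 7 genes no match of one motif overlapped a match of the other. The windows of Mmp27, Mmp8 and the first Mmp12 start held no TGANTCA, while a second RefSeq start of Mmp12, 2977 bases away, had it 44 bases upstream. A second RefSeq start of Mmp7, 251 bases away, had none in its window. Among the 4 tested genes with the letters in the window counted, Mmp7 and Mmp10 fell and Mmp3 and Mmp13 did not pass the test. Of all genes tested, 16.2% were lower, and Mmp10 reached a mean of 10 in Control only. Mmp12, with the letters at its second start alone, did not pass the test either (log2 fold change -0.16). These matches describe the sequence and say nothing of which factor was bound.

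Of the 44 members tested, 18 were lower and 3 were higher in Prox1 OE, and 23 did not pass the test. The test was limma on log2(normalised count + 1) with Benjamini-Hochberg adjustment over all genes and a threshold of 0.05 for the adjusted p. A call was therefore made for 47.7% of the members tested, where 33.3% of all genes tested were called. Calls lower were 40.9% of the members against 16.2% of all genes, and calls higher were 6.82% against 17.1%. The median log2 fold change (Prox1 OE over Control) was -0.63 over the members tested and -0.02 over all genes. The groups did not overlap for 27 members (61.4%), near the 63.3% of all genes tested that did not overlap. For a single gene, an exact permutation test of 2 against 3 libraries cannot go below p = 0.1. With each library scaled to its total count the median of all genes was -0.44, with 1475 genes higher and 6834 lower, and 28 members were called, 25 of them lower and 3 higher.

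In 1 group only, a mean of 10 was reached by Mmp10, Adamts19, Adamts8, Mmp25 and Adamts3. Over the 39 with both group means at 10 or more, 16 were lower and 3 were higher, with a median of -0.43. The threshold passed Adamts3, at a mean of 10.5, and left out Mmp20, at 4.21. With either Control library left out, fewer members were called, and fewer of all genes too. In such a fit the lone Control library is assumed to vary like the others. The 7 members called under every alternative tried were Mmp7, Mmp19, Adamts1, Adamts9, Timp1, Timp3 and Timp4.

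**Figure D1:**
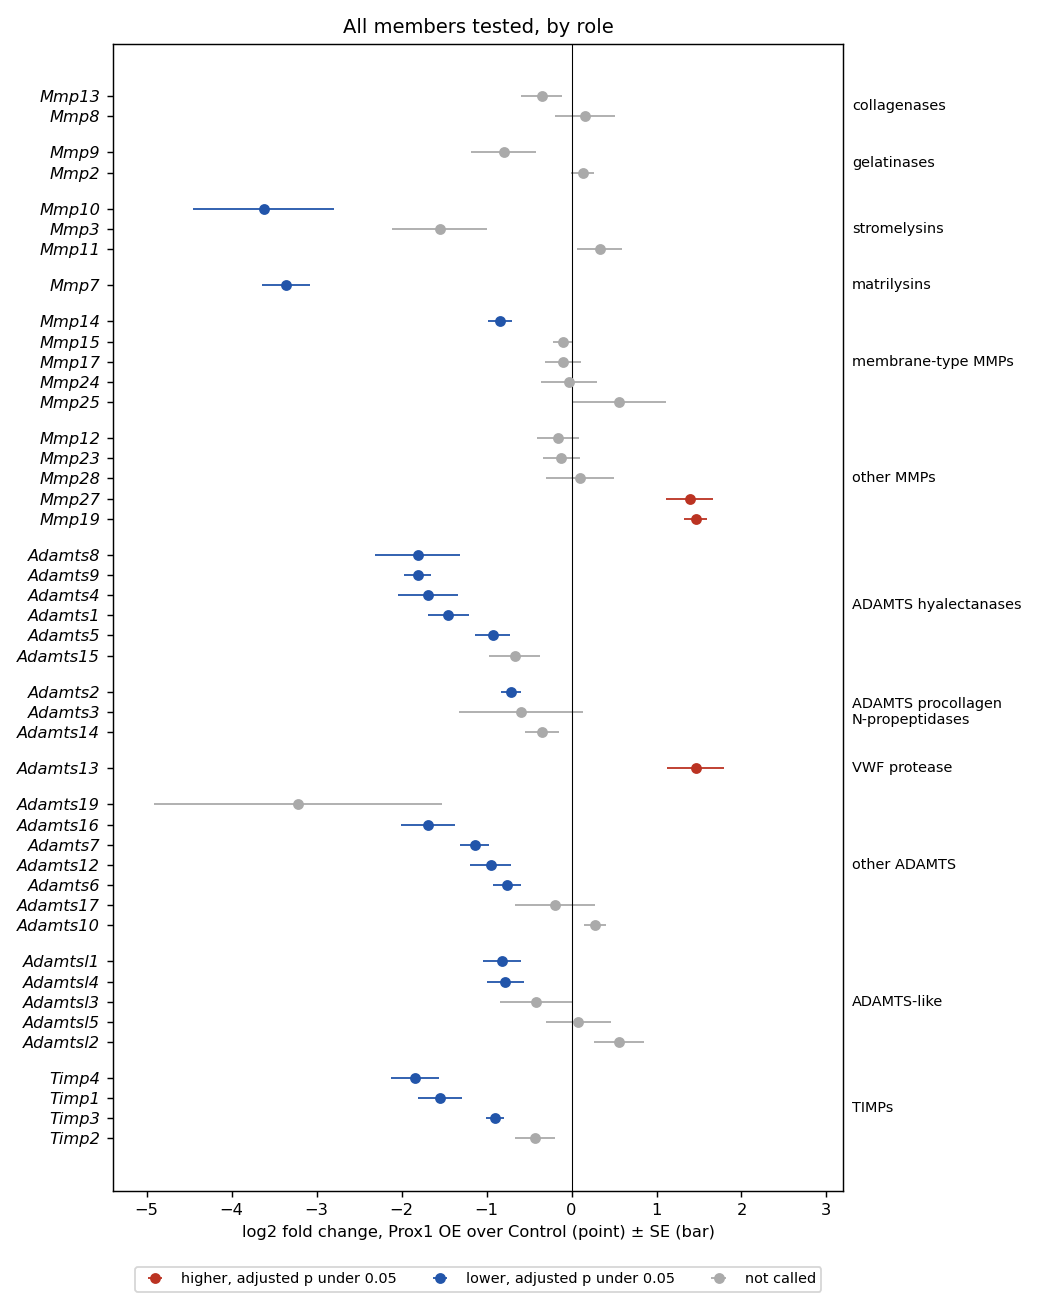
Log2 fold change of Prox1 OE over Control (x axis, on the log2(normalised count + 1) scale) for the 44 members tested, grouped by role, with bars of 1 SE from limma and colours for the adjusted p. The points of the 6 hyalectanases and 4 TIMPs lie to the left of 0, and the 3 members called higher are Mmp19, Mmp27 and Adamts13.

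Among the inhibitors, 3 of 4 TIMPs fell (75%, against 16.2% of all genes lower) and the fourth did not pass the test. Timp1, the TIMP most induced in fibrotic liver, was at 2597 and 4546 normalised counts in Control and at 1261, 1372 and 923.6 in Prox1 OE. Each Prox1 OE value lay below the lower Control value, and the Control libraries differed widely from each other. The log2 fold change was -1.55 ± 0.26 (SE, n = 2 and 3), with adjusted p = 0.0055.

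Timp3, which binds to matrix and inhibits the widest set of proteases, was at 8763 and 8057 in Control and at 4524, 4716 and 4250 in Prox1 OE. Replicates were close in both groups and the groups were well apart (log2 fold change -0.90 ± 0.11, adjusted p = 0.0027). Timp4 was at 675.3 and 792.6 in Control and at 260.7, 231.3 and 140.0 in Prox1 OE, a fall of 3.58-fold (log2 fold change -1.84 ± 0.28, adjusted p = 0.0039). Timp2, which inhibits MMPs and also takes part in pro-MMP2 activation with MMP14, was at 4610 and 4074 in Control.

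In Prox1 OE, Timp2 was at 4470, 2907 and 2544 normalised counts, so that replicate 1 lay within the Control range and the other two lay below it. The log2 fold change was -0.43 ± 0.23 (95% interval -0.97 to 0.10, adjusted p = 0.18). Without Prox1 OE replicate 1 the adjusted p was 0.0081, and with total count scaling it was 0.023. Timp1, Timp3 and Timp4 lie inside the Syn1, Syn3 and Syn2 genes, on the opposite strand, as the annotation gives them. Exons of Syn3 share 21.28% of the exon bases of Timp3, but Syn3 had a mean of 102 normalised counts, far under Timp3.

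Of the 18 MMPs tested, 3 were lower (16.7%, against 16.2% of all genes) and 2 were higher (11.1%, against 17.1%), so that the MMPs as a whole were near the share of all genes. Over the 16 with both group means at 10 or more, 2 were lower and 2 were higher (12.5% each). The median log2 fold change of the 18 was -0.10.

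Mmp7, matrilysin, a small secreted protease of epithelia that is induced in bile duct injury, had the largest fall among members that were well above the detection limit in both groups. It was at 1286 and 2534 normalised counts in Control and at 190.2, 184.1 and 151.6 in Prox1 OE. The lowest Control library was several times the highest Prox1 OE library, while the Prox1 OE libraries were close together. The fall was 10.3-fold (log2 fold change -3.36 ± 0.28, adjusted p = 0.0018), and the log2 fold change stayed between -3.85 and -2.87 over all alternatives.

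Mmp10, stromelysin-2, was at 22.2 and 35.6 normalised counts in Control and at 5.11, 1.18 and 0 in Prox1 OE. It rested on 75 reads in all and its fitted fold depended on the pseudocount, with a log2 fold change of -3.62 ± 0.83 (adjusted p = 0.016) and a range of -5.01 to -1.69 over the alternatives. Its adjusted p was 0.071 without Control replicate 1, 0.092 without Control replicate 2 and 0.052 without Prox1 OE replicate 2.

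Mmp3, stromelysin-1, was at 34.5 and 86.5 in Control and at 11.2, 16.5 and 31.2 in Prox1 OE. The groups did not overlap, though the highest Prox1 OE library came close to the lower Control library, and the test was not passed (log2 fold change -1.55 ± 0.56, adjusted p = 0.068). Without Prox1 OE replicate 3 the adjusted p was 0.045, with DESeq2 0.035, with total count scaling 0.014 and with the replicate number as a block 0.0094. The log2 fold change was -2.20 without Control replicate 1 (adjusted p = 0.085) and -0.90 without Control replicate 2 (adjusted p = 0.39). Without Prox1 OE replicates 1 and 2 in turn the adjusted p was 0.13 and 0.16.

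Mmp14, the membrane-type MMP that activates pro-MMP2 and cuts fibrillar collagen at the cell surface, was the most abundant MMP per kilobase of exon in Control replicate 1. It was at 9888 and 9956 normalised counts in Control and at 5493, 6312 and 4875 in Prox1 OE. The Control values were nearly equal and every Prox1 OE value lay well below them (log2 fold change -0.84 ± 0.14, adjusted p = 0.0049). The adjusted p was 0.056 without Control replicate 1.

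Mmp15, another membrane-type MMP, was at 3604 and 3832 in Control and at 3840.5, 3325 and 3259 in Prox1 OE. The groups overlapped and the log2 fold change was -0.10 ± 0.12 (95% interval -0.38 to 0.18, adjusted p = 0.55). With total count scaling it was -0.53 and passed the test (adjusted p = 0.020). The other membrane-type genes tested, Mmp17, Mmp24 and Mmp25, had log2 fold changes of -0.10, -0.03 and 0.56 and overlapping groups.

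The gelatinases did not pass the test. Mmp2, which stellate cells and fibroblasts make, was at 1236 and 991.8 normalised counts in Control and at 1258, 1127 and 1248 in Prox1 OE. The groups overlapped, with a log2 fold change of 0.13 ± 0.14 (95% interval -0.20 to 0.46, adjusted p = 0.52) that was -0.30 with total count scaling and -0.03 without Control replicate 2. Mmp9, made largely by leukocytes, was at 172.5 and 117.8 in Control and at 117.6, 89.7 and 50.9 in Prox1 OE, where the highest Prox1 OE value all but touched the lower Control value (log2 fold change -0.80 ± 0.38, adjusted p = 0.14). With total count scaling its adjusted p was 0.039.

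Of the collagenases, Mmp13 was at 135.6 and 150.9 in Control and at 133.9, 112.1 and 93.7 in Prox1 OE. This enzyme, the main interstitial collagenase of mouse liver, had all Prox1 OE values below Control by small margins, and the log2 fold change of -0.35 ± 0.24 did not pass the test (adjusted p = 0.29). With total count scaling its adjusted p was 0.049. Mmp8, the neutrophil collagenase, had overlapping groups and a log2 fold change of 0.16 ± 0.35, which was -0.26 with total count scaling.

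The MMPs that rose, Mmp19 and Mmp27, belong to none of these classes. Mmp19, a secreted protease of basement membrane components, was at 1372 and 1598 normalised counts in Control and at 3960.1, 3636 and 4681 in Prox1 OE. The groups were far apart, and the Control values were close to each other. The rise was 2.75-fold (log2 fold change 1.46 ± 0.14, adjusted p = 0.0023), and it stayed between 1.03 and 1.57 on the log2 scale over all alternatives. Exons of Tmem198b on the opposite strand share 22.33% of the Mmp19 exon bases, and Tmem198b had a mean of 405 normalised counts.

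Mmp27 was at 55.0 and 54.2 in Control and at 185.1, 108.6 and 150.5 in Prox1 OE. All Prox1 OE values lay above the nearly equal Control values (log2 fold change 1.39 ± 0.28, adjusted p = 0.011). The adjusted p was 0.086 without Control replicate 1 and 0.071 without Control replicate 2. Mmp12, the macrophage elastase, was the most abundant gene of the cluster after Mmp7 in Control by normalised count, had overlapping groups and a log2 fold change of -0.16 ± 0.25.

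**Figure D2:**
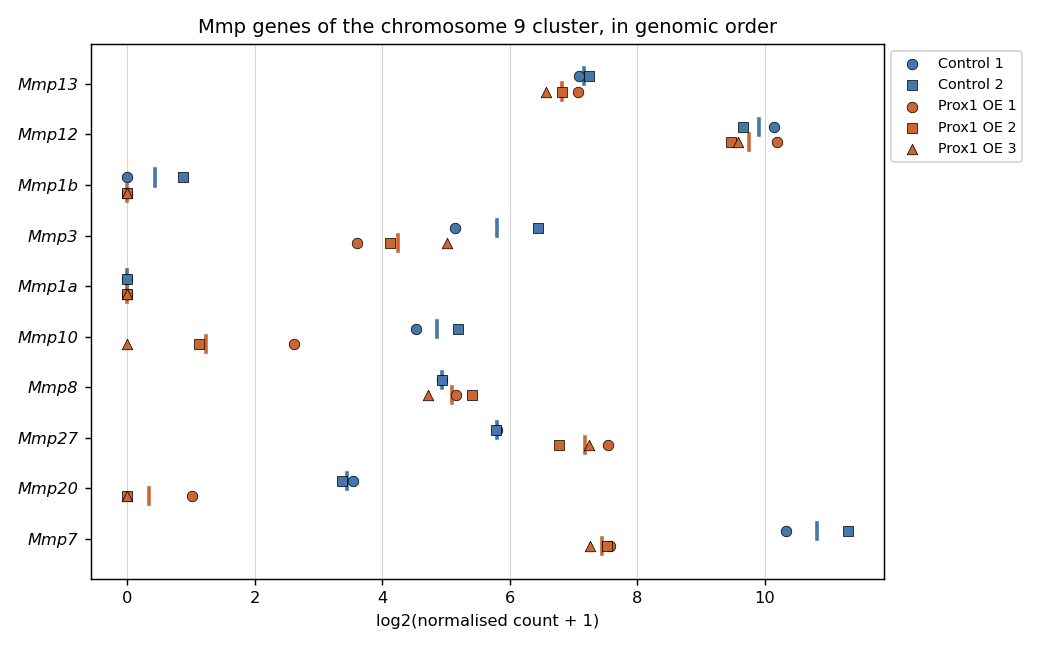
Log2(normalised count + 1) of the 10 Mmp genes of the chromosome 9 cluster in genomic order, 1 marker per library and a vertical bar for each group mean. Mmp7 and Mmp10 sit to the left in all 3 Prox1 OE libraries and Mmp27 to the right, with Mmp8 between Mmp10 and Mmp27 in genomic order and overlapping.

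Of the 7 tested genes of the cluster, Mmp7 and Mmp10 fell, Mmp27 rose and Mmp13, Mmp12, Mmp3 and Mmp8 did not pass the test (42.9% called, against 33.3% of all genes). Mmp10 reached a mean of 10 in Control only and entered this count through the group where it was high. The share is therefore not a result about the cluster. Mmp20, under the mean of 10, was at 10.7 and 9.32 in Control and at 1.02, 0 and 0 in Prox1 OE. Taking 3 reads in each Prox1 OE library as the floor (a mean of 3.36 normalised counts), Mmp20 was at least 2.98-fold lower, from 25 reads in all. With no filter on low values it was called lower (adjusted p = 0.013), at a fitted log2 fold change of -3.12 that depends on the pseudocount and is no bound. Mmp1b had 1 read and Mmp1a had 0.

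Of 17 ADAMTS proteases tested, 10 were lower (58.8%, against 16.2% of all genes) and 1 was higher (5.88%, against 17.1%), with a median log2 fold change of -0.93. Over the 14 with both group means at 10 or more, 9 were lower and 1 was higher. In the hyalectanases, which cut versican and aggrecan, 5 of 6 tested fell, or 4 of 5 without Adamts8, which reached a mean of 10 in Control only. Adamts1, the most abundant ADAMTS per kilobase of exon in every library, was at 10446 and 11036 normalised counts in Control and at 5230.0, 4149 and 2814 in Prox1 OE. All Prox1 OE values lay far below the Control values, which were close together, and the fall was 2.73-fold (log2 fold change -1.45 ± 0.24, adjusted p = 0.0052).

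Adamts9, which also cuts versican, had the smallest adjusted p among the ADAMTS genes. It was at 4684 and 4378 in Control and at 1236, 1574 and 1097 in Prox1 OE. Replicates were close and the groups far apart (log2 fold change -1.81 ± 0.16, adjusted p = 0.0019). Adamts4, aggrecanase-1, was at 289.2 and 348.4 in Control and at 133.9, 115.6 and 60.2 in Prox1 OE (log2 fold change -1.69 ± 0.35, adjusted p = 0.011).

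Adamts5, aggrecanase-2, was at 990.8 and 1313 in Control and at 469.3, 660.8 and 687.5 in Prox1 OE, with all Prox1 OE values below Control and replicate 1 lowest (log2 fold change -0.93 ± 0.21, adjusted p = 0.015). Adamts8 was low, at 26.3 and 35.6 in Control and at 10.2, 10.6 and 4.63 in Prox1 OE, from 97 reads in all (log2 fold change -1.81 ± 0.50, adjusted p = 0.029). Adamts15 did not pass the test at a log2 fold change of -0.67 ± 0.30 (adjusted p = 0.12), and its adjusted p was 0.032 without Prox1 OE replicate 1 and 0.023 with total count scaling. These genes include neighbours, Adamts1 (chr16:85793827-85803113) with Adamts5 (chr16:85856173-85901828), and Adamts15 (chr9:30899155-30922452) with Adamts8 (chr9:30942562-30963838), by GRCm38.

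Without Control replicate 1 the adjusted p was 0.071 for Adamts4, 0.058 for Adamts5 and 0.11 for Adamts8. Without Control replicate 2 it was 0.084, 0.13 and 0.16 for the same genes. For Adamts8 it was also 0.051 without Prox1 OE replicate 2, 0.057 without replicate 3, 0.057 with no filter on low values and 0.054 with the replicate number as a block.

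Of the procollagen N-propeptidases, which trim fibrillar procollagens before assembly, Adamts2 fell and Adamts3 and Adamts14 did not pass the test. Adamts2 was at 2155 and 2245 in Control and at 1232, 1377 and 1422 in Prox1 OE. The groups were apart by a wide margin and replicates were close (log2 fold change -0.71 ± 0.12, adjusted p = 0.0054), with an adjusted p of 0.062 without Control replicate 1 and 0.059 without Control replicate 2. Adamts3 and Adamts14 had log2 fold changes of -0.59 ± 0.73 and -0.35 ± 0.20. With total count scaling Adamts14 was at -0.78 (adjusted p = 0.020).

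Adamts13, the protease that cuts von Willebrand factor and is made by stellate cells of the liver, was the ADAMTS gene that rose. It was at 26.3 and 39.0 normalised counts in Control and at 69.5, 87.3 and 119.2 in Prox1 OE. The lowest Prox1 OE value was above the higher Control value (log2 fold change 1.46 ± 0.34, adjusted p = 0.016). Its adjusted p was 0.14 without Control replicate 1 and 0.053 without Prox1 OE replicate 2.

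Among the remaining ADAMTS proteases, 4 of 7 tested fell (57.1%, against 16.2% of all genes lower). Adamts16 was at 1513 and 1190.1 in Control and at 616.6, 429.5 and 272.0 in Prox1 OE. All Prox1 OE values were far below Control, with replicate 3 lowest (log2 fold change -1.69 ± 0.32, adjusted p = 0.0080). Adamts7, which cuts cartilage oligomeric matrix protein, was at 951.4 and 916.3 in Control and at 503.1, 416.5 and 358.8 in Prox1 OE (log2 fold change -1.14 ± 0.17, adjusted p = 0.0041).

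Adamts12, which shares that substrate, fell by 0.95 on the log2 scale (adjusted p = 0.023) and Adamts6 fell by 0.76 (adjusted p = 0.011). Without Control replicate 1 the adjusted p was 0.080 for Adamts16, 0.056 for Adamts7, 0.17 for Adamts12 and 0.12 for Adamts6. Without Control replicate 2 it was 0.098 for Adamts12 and 0.078 for Adamts6, and without Prox1 OE replicate 2 it was 0.076 for Adamts12. Adamts10, a fibrillin-binding relative of Adamts6, had Prox1 OE above Control but did not pass the test (log2 fold change 0.28 ± 0.13, adjusted p = 0.13), and was at -0.15 with total count scaling. Adamts17 had overlapping groups.

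Adamts19 passed the filter through 1 library. It was at 85.4 normalised counts in Control replicate 1 and at 0 in Control replicate 2 and in all 3 Prox1 OE libraries. Its groups differed only through that library and it was not called (adjusted p = 0.18), though without Control replicate 2 it was (adjusted p = 0.011). No other member was detected in a single library at such a level.

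**Figure D3:**
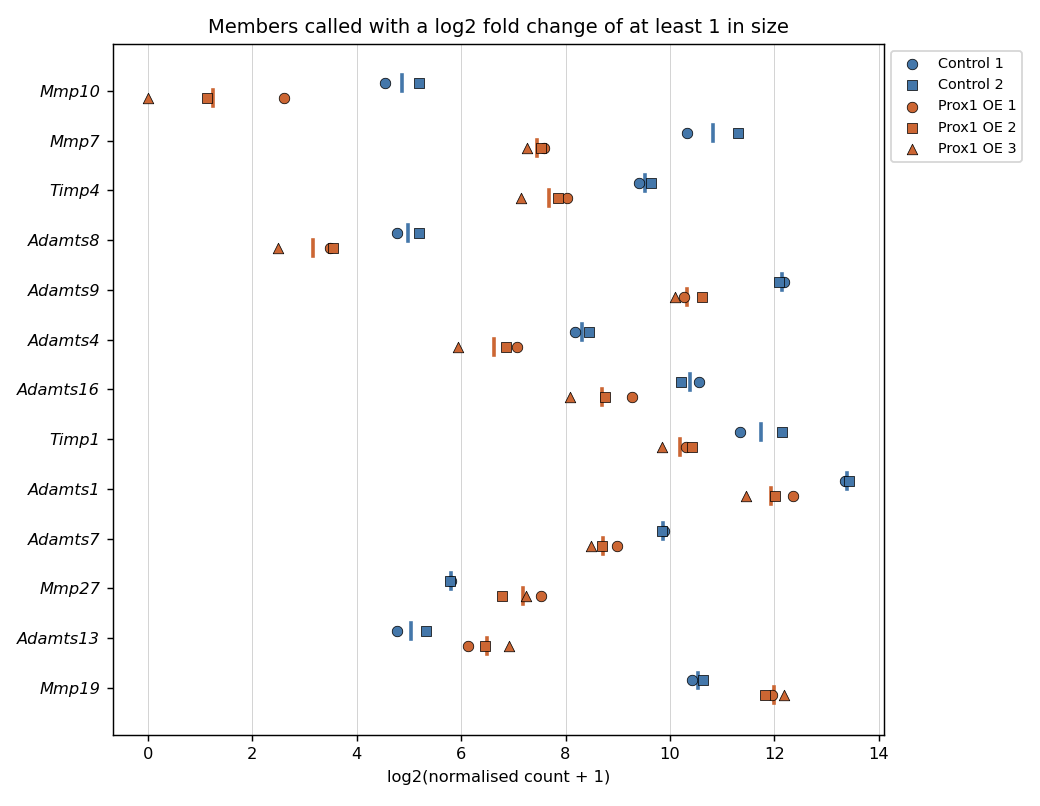
Log2(normalised count + 1) in each library (x axis) of the 13 members called with a log2 fold change of at least 1 in size, with markers for libraries and vertical bars for group means. The Control and Prox1 OE markers do not overlap for any of the 13, and Prox1 OE replicate 3 (triangle) is the lowest for most members that fell.

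Of the 5 ADAMTS-like genes, 2 fell (40%, against 16.2% of all genes lower). Adamtsl1 fell by 0.82 (adjusted p = 0.027) and Adamtsl4 by 0.78 (adjusted p = 0.031) on the log2 scale. Adamtsl4 encodes a fibrillin-1 binding protein. Adamtsl2, which also binds fibrillin and is known for regulating TGF-beta in matrix, was at 1425 and 1388 in Control and at 1306, 2544 and 2679 in Prox1 OE, with Prox1 OE replicate 1 below and the other two above Control (log2 fold change 0.56 ± 0.29, adjusted p = 0.18). Without Prox1 OE replicate 1 it was 0.89 with adjusted p = 0.0036. Adamtsl3 and Adamtsl5 had overlapping groups. Without Control replicate 1 the adjusted p was 0.18 for Adamtsl1 and 0.087 for Adamtsl4, and without Control replicate 2 it was 0.11 and 0.24. For Adamtsl4 it was also 0.088 without Prox1 OE replicate 2, 0.072 without replicate 3 and 0.053 with no filter.

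Levels were compared between genes as normalised counts per kilobase of exon. The summed level of the 18 MMPs was 4899 and 6075 in Control and 3904, 3768 and 3780.0 in Prox1 OE. Mmp14 took 33.9% and 27.5% of that sum in Control and 23.6%, 28.1% and 21.6% in Prox1 OE. Mmp7 went from 24.6% and 39.1% of the sum to 4.56%, 4.57% and 3.76%.

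Mmp19 went the other way, from 7.93% and 7.44% in Control to 28.7%, 27.3% and 35.1%. It thus passed from well below Mmp14 in both Control libraries to above it in Prox1 OE replicates 1 and 3 and just below it in replicate 2. The ratio of Mmp19 to Mmp14 per kilobase was 0.234 and 0.271 in Control and 1.22, 0.972 and 1.62 in Prox1 OE. These shares follow from the fold changes above and were not tested separately.

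The summed ADAMTS protease level was 3427 and 3494 in Control and 1756.5, 1563 and 1205 in Prox1 OE. The summed TIMP level was 5298 and 7289 in Control and 3167, 2910.0 and 2239 in Prox1 OE. Both sums were lower in every Prox1 OE library than in either Control library. The ratio of the TIMP sum to the MMP sum was 1.08 and 1.20 in Control and 0.811, 0.772 and 0.592 in Prox1 OE, so that inhibitor transcripts exceeded MMP transcripts in the Control libraries and not in the Prox1 OE libraries. Timp1 made up 55.2% and 70.2% of the TIMP sum in Control and 44.8%, 53.1% and 46.5% in Prox1 OE. Transcript ratios do not measure protein or activity.

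**Figure D4:**
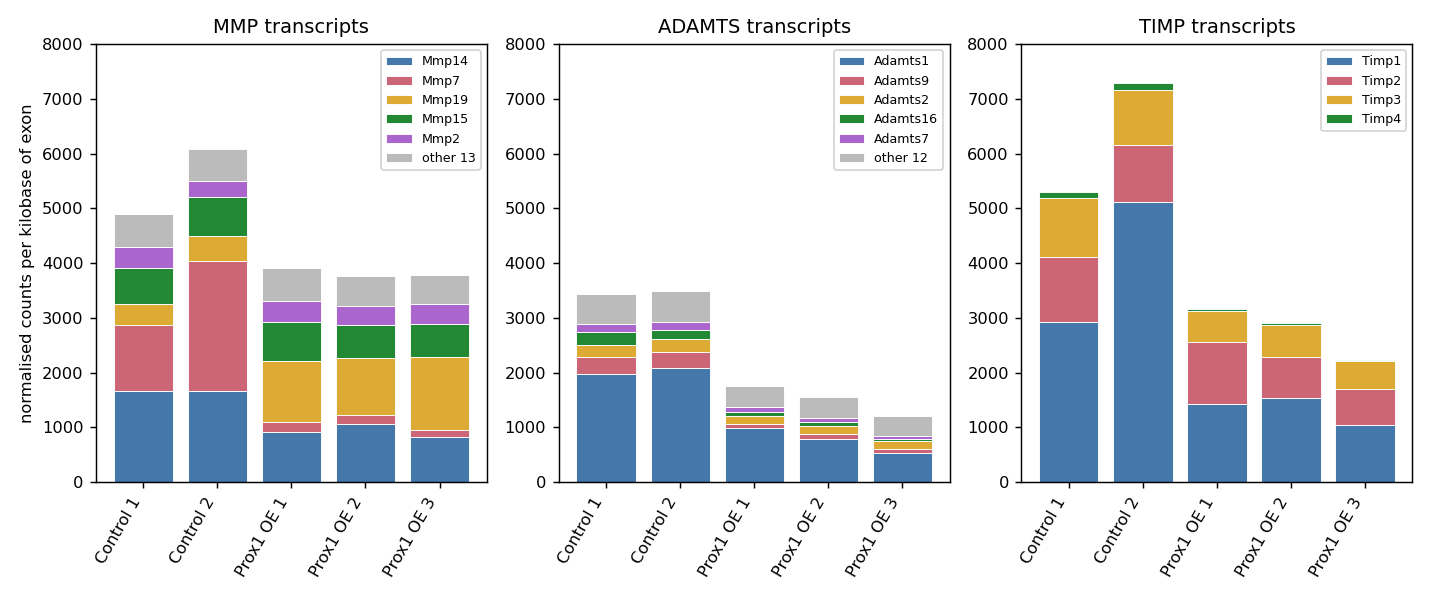
Stacked normalised counts per kilobase of exon in each of the 5 libraries for MMP, ADAMTS protease and TIMP transcripts, with the leading genes coloured and the rest in grey. Mmp7 shrinks and Mmp19 grows within the MMP bars, and the ADAMTS and TIMP bars are shorter in all 3 Prox1 OE libraries.

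MMP precursors are activated by proprotein convertases and by plasmin, which plasminogen activators release from plasminogen. Of 17 listed activators and inhibitors, all tested, 6 were higher, 6 were lower and 5 did not pass the test (median log2 fold change 0.12). Each direction thus held 35.3% of the list, against 17.1% of all genes higher and 16.2% lower. Among those lower were Plau, the plasminogen activator urokinase (log2 fold change -1.10, adjusted p = 0.0077), and Plaur, its receptor (-1.47, adjusted p = 0.0052).

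Those higher by at least 1 on the log2 scale were Plg, plasminogen (log2 fold change 1.53, adjusted p = 0.0085), Serpinf2, the plasmin inhibitor (1.16, adjusted p = 0.020), Klkb1, plasma prekallikrein (1.83, adjusted p = 0.016), and Pcsk6, a proprotein convertase (1.29, adjusted p = 0.0027). A2m, the broad protease trap alpha-2-macroglobulin, fell by 2.14 on the log2 scale (adjusted p = 0.0049). Its relative Pzp, on the same list and far more abundant, rose by 0.82 (adjusted p = 0.02). Mean normalised counts in Control and Prox1 OE were 4029 and 987 for A2m, and 68262 and 120792 for Pzp. Thbs1, thrombospondin-1, fell by 2.11 on the log2 scale (adjusted p = 0.0071). Without Control replicate 1 the list had 5 calls in place of 12.

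Of 20 listed matrix substrates, 17 were tested, of which 10 were lower (58.8%, against 16.2% of all genes) and 0 were higher (against 17.1%), with a median log2 fold change of -0.66. Versican, Vcan, the substrate of the hyalectanases above, was at 959.6 and 806.1 normalised counts in Control and at 264.8, 338.7 and 282.4 in Prox1 OE (log2 fold change -1.58, adjusted p = 0.0024). Col1a1, a chain of type I collagen, fell by 1.23 on the log2 scale (adjusted p = 0.0033). Without Control replicate 1 the list had 3 calls and without Control replicate 2 it had 5.

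The ADAM proteases, membrane-anchored relatives that shed cell surface proteins, had 1 higher and 2 lower of 11 tested from a list of 12, so that 27.3% were called against 33.3% of all genes. Adam19 fell (log2 fold change -1.37, adjusted p = 0.0040) and Adam23, which lacks protease activity, rose (1.85, adjusted p = 0.0094). With total count scaling 8 of this list were called, with DESeq2 5, and without Control replicate 1 only 1. The list had a median log2 fold change of -0.31.

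**Figure D5:**
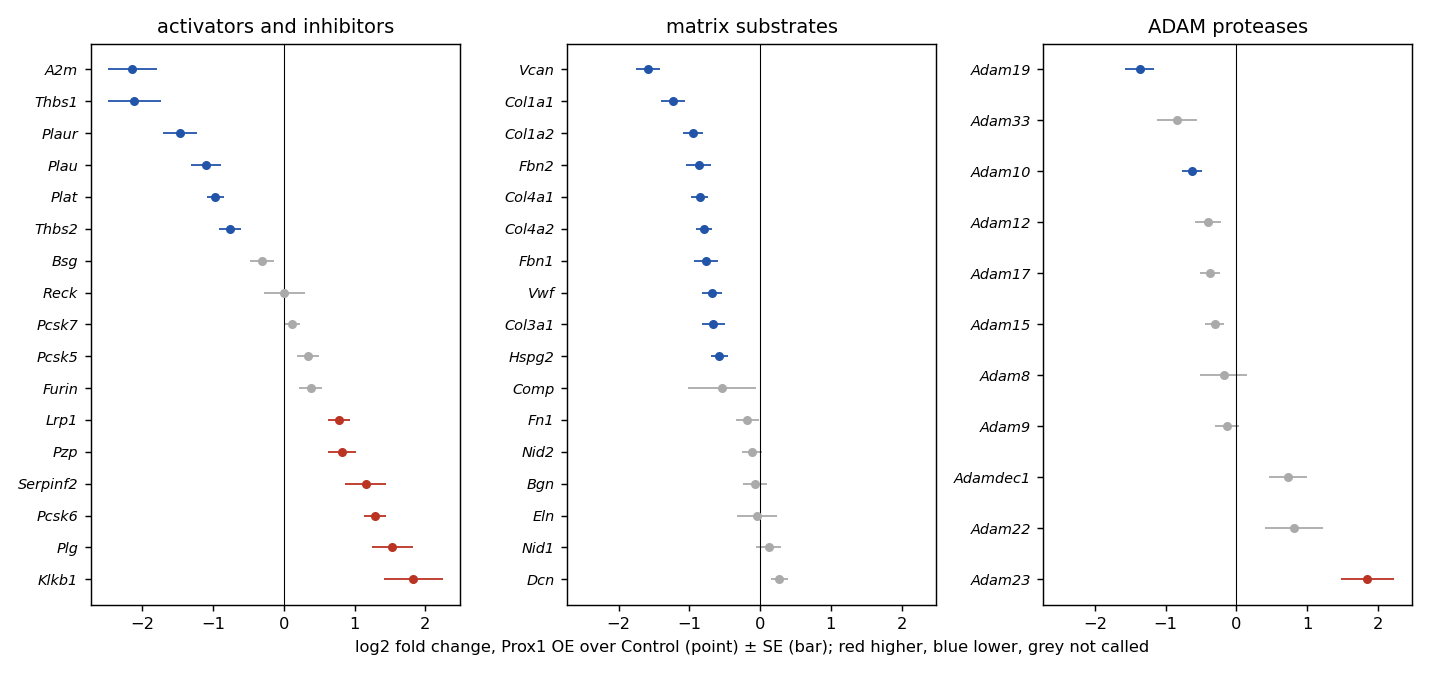
Log2 fold change of Prox1 OE over Control (points) with bars of 1 SE for the tested genes of 3 lists, coloured by call. Activators and inhibitors spread over both sides of 0, 10 of 17 matrix substrates are called lower, and most ADAM proteases are not called.

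Markers of liver cell types also differed between the groups, where 17.1% of all genes were higher and 16.2% lower. In bulk samples, fewer cells of a type and less RNA per cell cannot be told apart. All 8 hepatocyte markers rose, with a summed level of 726088 and 1163640 normalised counts in Control and 2405720 to 3766560 in Prox1 OE. All 5 cholangiocyte markers (Krt19, Krt7, Sox9, Epcam and Cftr) fell, with sums of 35466 and 39327 in Control and 11044 to 14225 in Prox1 OE. The cholangiocyte sum was thus lower in every Prox1 OE library, as Mmp7 was.

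Of 9 stellate cell and fibroblast markers, 3 were lower, 1 was higher and 5 did not pass the test (44.4% called, against 33.3% of all genes), with sums of 59206 and 64028 in Control and 34498 to 39801 in Prox1 OE. Rgs5 alone was at 31073 and 30128 in Control and at 17208.5, 19395 and 17284 in Prox1 OE. Pdgfrb, Pdgfra and Lum had overlapping groups and Lrat rose. Of the members named above as made by these cells, Mmp2 had overlapping groups and Adamts13 rose. Other members, among them Timp1, Timp3, Mmp14 and Adamts2, fell, and which cells made them was not tested. Of 8 macrophage markers, 4 were higher (50%) and 0 lower, with sums of 22091 and 22759 in Control and 37201 to 48716 in Prox1 OE, and Mmp12 had overlapping groups. Of 6 endothelial markers, 3 were higher (50%), of 5 lymphocyte markers tested 3 were higher (60%), and of 5 neutrophil markers tested 0 were called. No listed marker was at 0 in all libraries, and the part of these cell types in the members' values was not tested.

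Prox1 OE replicate 3 was the lowest of the 3 Prox1 OE libraries in 16 of the 18 members that fell (88.9%), against 59.7% of the 2769 genes that were lower in all. The same library had the highest hepatocyte sum and the lowest cholangiocyte sum of the 5, and the lowest Prox1 value of the Prox1 OE libraries. Without it, 19 of the 21 called members were still called. Its part in the members' values was otherwise not tested.

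The members under the mean of 10 were Adamts18 (1 read over the 5 libraries), Adamts20 (12), Mmp16 (8), Mmp1a (0), Mmp1b (1), Mmp20 (25) and Mmp21 (1). Apart from Mmp20, given above, these were too low for any difference to be detectable at this depth. Mmp11, Mmp23 and Mmp28, tested and not called, had overlapping groups.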

How the data were processed

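Per the labels and the methods of the study, libraries were made with the dUTP protocol, sequenced as paired 100 base reads and aligned by the authors to mm10 with STAR. The deposited table holds a signal, the count of each gene divided by a DESeq2 size factor, and the counting tool and its strand setting were not given in the sources used here. Every value was a whole multiple of the value of 1 read (100% within 0.01 reads), so reads were recovered. A table of the authors' own comparison (mean, log2 fold change and p-values) was not used.

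Genes with a mean of at least 10 were tested on log2(normalised count + 1) with limma 3.58.1 (lmFit, eBayes with trend) in R 4.3.3, two-sided, with Benjamini-Hochberg adjustment over 17105 genes and a threshold of 0.05. This scale understates the change of low genes. SEs and 95% intervals are those of limma, and values per kilobase use summed exons of GENCODE vM21 (GRCm38, as mm10). Symbols were found for 55137 of 55397 identifiers (99.5%).

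Every called member was named. Values in every library were given for those with a log2 fold change of at least 1 in size, for the TIMPs and for a fixed set of well known members. Listed pathway genes were named where called at that size, with Pzp added beside A2m. Some listed genes are not reported here. Members and lists were chosen with earlier results of these data known. Alternatives were other scalings (TMM factors, total count), pseudocounts of 0.1 and 10, no filter or a mean of at least 50, DESeq2 1.42.0 and the quasi-likelihood test of edgeR 4.0.16 (both run on recovered reads), a block for the replicate number and each library left out. Floors of 3 reads and depths cover counting error only.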

Additional observations from a re-analysis of the deposited data

How the results depend on the processing

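Of 606 log2 fold changes of members under 14 alternatives, 535 kept their side of the threshold without a change of sign, 34 lost the call, 14 gained it and 23 changed sign. Called members accounted for all 34 losses and for none (0) of the sign changes. Members called were 7 to 24 with 1 library left out (higher 1 to 4, lower 6 to 20), genes called 1158 to 7491 (higher 681 to 3738, lower 477 to 3753), and calls in the lists 5 to 12 (activators and inhibitors), 3 to 10 (substrates) and 1 to 5 (ADAM). Losses came mostly with 1 Control library left. Total count scaling moved the median of all genes from -0.02 to -0.44, with 1475 genes higher, 6834 lower and 8 ADAM calls, and DESeq2 gave 5 ADAM calls. The cause was not tested.

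All sign changes were of uncalled members. With total count scaling Adamts10 was at -0.15, Adamtsl5 at -0.34, Mmp11 at -0.10, Mmp2 at -0.30, Mmp28 at -0.32 and Mmp8 at -0.26. Mmp24 was at 0.04 with edgeR, 0.02 with DESeq2 and 0.24 with the replicate block, where Adamts17 was at 0.03. With 1 library left out, the values ran from -0.51 to 0.12 for Adamts17, -6.43 to 0.00 for Adamts19 (not a change of sign), -1.0 to 0.09 for Adamts3, -0.36 to 0.53 for Adamtsl5, -0.40 to 0.09 for Mmp12, -0.25 to 0.05 for Mmp17, -0.03 to 0.29 for Mmp2, -0.24 to 0.08 for Mmp23, -0.17 to 0.24 for Mmp24 and -0.37 to 0.56 for Mmp28.

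The replicate block kept replicates 1 and 2 of each group and called 21 members (18 lower, 3 higher), 20 of them shared. Deviations of libraries with the same number had correlations of 0.14 and 0.02 over 2 pairs, and the numbers were not taken as pairs. With no filter 20 members were called, 19 of them shared and the other Mmp20. Mmp10 and Adamts8 rest on few reads.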
